A study of Mus musculus with 2 samples.

Results

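Among the miRNAs printed on the mouse array, 5 mature arms of miR-128, miR-150 and miR-342 are described: mmu-miR-128-3p, mmu-miR-150-5p, mmu-miR-150-3p, mmu-miR-342-3p and mmu-miR-342-5p (the 5′ arms of miR-128 are not among the 5). They are defined by name, by a rule that holds no measured value, and are 5 of the 1881 mouse miRNAs with spots on both arrays. Only miR-128-3p and miR-342-3p were detected, and only at week-0. At week-3 both fell below detection. In processed signal, the week-0 mean of the longer miR-128-3p probe was 2.62 times the week-3 detection limit, and that of the longer miR-342-3p probe 1.69 times. Under 2 other background treatments, which shrink the differences of dim miRNAs, neither arm passed the threshold for a lower miRNA. Those treatments called 10.8% and 4.69% of the 213 miRNAs detected on at least 1 array lower, against 28.6%. miR-150-5p, miR-150-3p and miR-342-5p were not detected at either time.

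The RNA came from bone marrow LSKs, the lineage-negative, Sca1-positive and c-Kit-positive fraction in which hematopoietic stem cells and early progenitors lie. All donors were C57BL/6 mice that carried BCR/ABL under tet-off control, with tTA made from Scl regulatory DNA (Scl/tTA-BCR/ABL). Both groups had been kept on doxycycline at 20 mg/L in the drinking water, which holds the transgene off. 0W_LSK was sorted at week-0 after doxycycline was taken away and 3W_LSK at week-3. Each group was a pool of 3 mice on 1 array, labelled with Cy3, so no difference below has a replicate check and none was tested. The age of the mice is not given in the sources used here. Transgene-free mice withdrawn from the drug alongside were not among the arrays, so the 3 weeks without the drug and the transgene cannot be told apart. In the study's reporter mice only part of the LSKs carried the reporter, and in a bulk pool fewer cells of a type and less RNA per cell cannot be told apart either.

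A miRNA is cut from a hairpin whose 5p and 3p arms can both be kept, and the kept arm guides a silencing complex to mRNAs that pair with its seed, the stretch from base 2 to base 8. miR-150 is abundant in mature B and T lymphocytes, where it represses the transcription factor Myb, and its forced expression holds back early B cell development in mice. miR-342 is made from within Evl, a gene for an actin regulator, and is found in lymphoid and other blood cells. miR-128 is best known as a brain miRNA and was proposed, from work on human CD34+ cells, to hold back differentiation of blood progenitors.

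The mature sequences are shown since each arm's detection rests on its own probes, and since the seed decides which mRNAs a miRNA can pair with. RefSeq (GRCm38.p6) held 4 of the 5 arms, written here 5′ to 3′ with the seed in capitals.
miR-128-3p: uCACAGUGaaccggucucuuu
miR-342-3p: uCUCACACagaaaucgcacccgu
miR-342-5p: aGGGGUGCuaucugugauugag
miR-150-3p: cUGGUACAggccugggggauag
None of these seeds was shared with another of the 1679 mature names in that table, so these arms form no seed family there.

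miR-128-3p is encoded in 2 places. Mir128-1 lies within the bounds of R3hdm1 and gives the mature strand at chr1:128202404-128202424 (plus strand), while Mir128-2 lies within Arpp21 and gives it at chr9:112118644-112118664 (minus strand). Both miR-342 arms come from 1 hairpin within Evl, miR-342-5p at chr12:108658638-108658659 and miR-342-3p at chr12:108658680-108658702 (plus strand). miR-150-3p lies at chr7:45121798-45121819 (plus strand). Mir150 had no host gene in the table. Exons of the host genes were not looked up here. The hairpins of the detected arms follow, with both mature arms in capitals.
Mir128-1: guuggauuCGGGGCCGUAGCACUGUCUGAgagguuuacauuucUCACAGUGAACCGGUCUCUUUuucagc
Mir128-2: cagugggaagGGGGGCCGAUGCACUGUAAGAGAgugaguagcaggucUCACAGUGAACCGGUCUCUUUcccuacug
Mir342: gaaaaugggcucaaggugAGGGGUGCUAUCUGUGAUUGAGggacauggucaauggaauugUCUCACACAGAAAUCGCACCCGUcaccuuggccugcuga
The capitals at the 3′ side of both Mir128 hairpins are the same 21 bases, so the signal of miR-128-3p cannot be assigned to either gene. Their 5′ arms differ and have names of their own on the array. Both of these, miR-128-1-5p and miR-128-2-5p, were undetected on both arrays, with every probe mean below 0.

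The array reads a miRNA through probes of slightly different length that pair with its 3′ part. Those of the detected arms and the longest of miR-342-5p and miR-150-3p are shown, 5′ to 3′, with the bases that pair with the seed in capitals.
miR-128-3p, 20 bases: aaagagaccggttCACTGTG
miR-128-3p, 19 bases: aaagagaccggttCACTGT
miR-342-3p, 17 bases: acgggtgcgatttctGT
miR-342-3p, 16 bases: acgggtgcgatttctG
miR-342-5p, 19 bases: ctcaatcacagataGCACC
miR-150-3p, 13 bases: ctatcccccaggc
The longer miR-128-3p probe covers bases 2 to 21 and the longer miR-342-3p probe bases 7 to 23, whereas the miR-150-3p probe covers bases 10 to 22 and none of the seed. Within miR-128-3p and within miR-342-3p the probes differ by 1 base at the seed side. Probes of unlike length and base content bind unequally, so the signals of different miRNAs do not order their levels.

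The scanner's processed signal is the spot signal after background subtraction, in scanner units, and it can fall below 0. Negative control spots, which pair with no miRNA, averaged 4.83 ± 3.56 (SD over 960 spots) at week-0 and 4.50 ± 2.92 (977 spots) at week-3. Their 95th percentiles were 11.2 and 9.10, so a spot under about that level cannot be separated from these controls. Probe means of undetected miRNAs ran lower, with medians of -1.30 at week-0 and -1.23 at week-3 and 95th percentiles of 6.00 and 4.98. A miRNA counts as detected where a probe's total exceeded 3 times its error. By that flag the week-0 array detected 178 mouse miRNAs (9.46%) and the week-3 array 193 (10.3%). They shared 158, which leaves 20 seen in the week-0 pool alone and 35 in the week-3 pool alone. No spot was saturated. The 5 arms had 14 probes, of which 2 passed at week-0 (the longer probes of miR-128-3p and miR-342-3p) and 0 at week-3.

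miR-128-3p passed detection by the widest margin of the 5. At week-0 the 15 spots of its 20-base probe ran from 21.6 to 33.2 with a median of 27.6, every one above the 95th percentile of the negative controls. The mean was 26.7 ± 3.50 (SD, n = 15 spots), 21.9 units over the mean of the negative controls, and 12 of the 15 spots were flagged well above background. At week-3 the 14 spots kept ran from 2.45 to 18.4 with a median of 6.78. The mean was 8.84 ± 4.52 (SD, n = 14 spots), 4.34 units over the negative controls, with 1 spot well above background and 6 above the 95th percentile. The probe's total stood at 5.14 times its error at week-0 and 2.60 times at week-3, under the 3 that detection asks for. Among probes of miRNAs undetected at week-3, its week-3 mean lay at percentile 99.5.

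No week-3 spot of this probe that was kept reached the lowest week-0 spot. The 1 week-3 spot that the scanner software had marked as an outlier, and which was left out, read 23.2 and would have. The 19-base probe ran lower on both arrays. Its spots spanned 7.17 to 18.7 at week-0 (median 12.6, mean 12.02 ± 3.04, n = 15) and 1.12 to 6.40 at week-3 (median 3.68, mean 3.81 ± 1.77, n = 13), and again the kept spots of the arrays did not overlap. The 2 week-3 spots left out read 9.53 and -2.14. The ratio of week-3 to week-0 before scaling was 0.331 (SE over spots 0.0466) for the longer probe and 0.317 (SE 0.0458) for the shorter, a gap smaller than either error.

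In raw signal, before any subtraction, the 20-base probe averaged 69.4 at week-0, 4.35 times its local background, where the negative controls had 3.01 times theirs. At week-3 the same probe averaged 49.2, or 3.01 times its local background, against 2.74 for the negative controls. The negative controls averaged 47.6 and 45.3 in raw signal on the same arrays, so the week-3 mean of the probe lay close to them.

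miR-342-3p passed detection more narrowly, and its spots overlapped. At week-0 the spots of its 17-base probe ran from 7.17 to 23.6 with a median of 16.6, and 13 of the 15 lay above the 95th percentile of the negative controls. The mean was 16.8 ± 4.31 (SD, n = 15 spots), 11.98 units over the negative controls, but only 2 spots were flagged well above background. At week-3 the spots ran from -0.75 to 11.3 with a median of 6.54. The mean was 5.35 ± 3.78 (SD, n = 15 spots), 0.849 units over the negative controls, with 0 spots well above background and 2 above the 95th percentile. The total fell from 3.52 to 1.61 times its error, so the week-0 call was a near one and the week-3 signal was not separable from the negative controls. Among probes of miRNAs undetected at week-3, the week-3 mean lay at percentile 95.9.

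The arrays overlapped for both miR-342-3p probes, as 7 of the 15 week-3 spots reached the lowest week-0 spot in each. The 16-base probe spanned 3.33 to 17.8 at week-0 (median 10.66, mean 10.68 ± 4.21, n = 15) and -1.34 to 8.87 at week-3 (median 2.84, mean 3.50 ± 2.60, n = 15). The ratio of week-3 to week-0 before scaling was 0.318 (SE over spots 0.0617) for the longer probe and 0.327 (SE 0.0712) for the shorter.

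**Figure D1:**
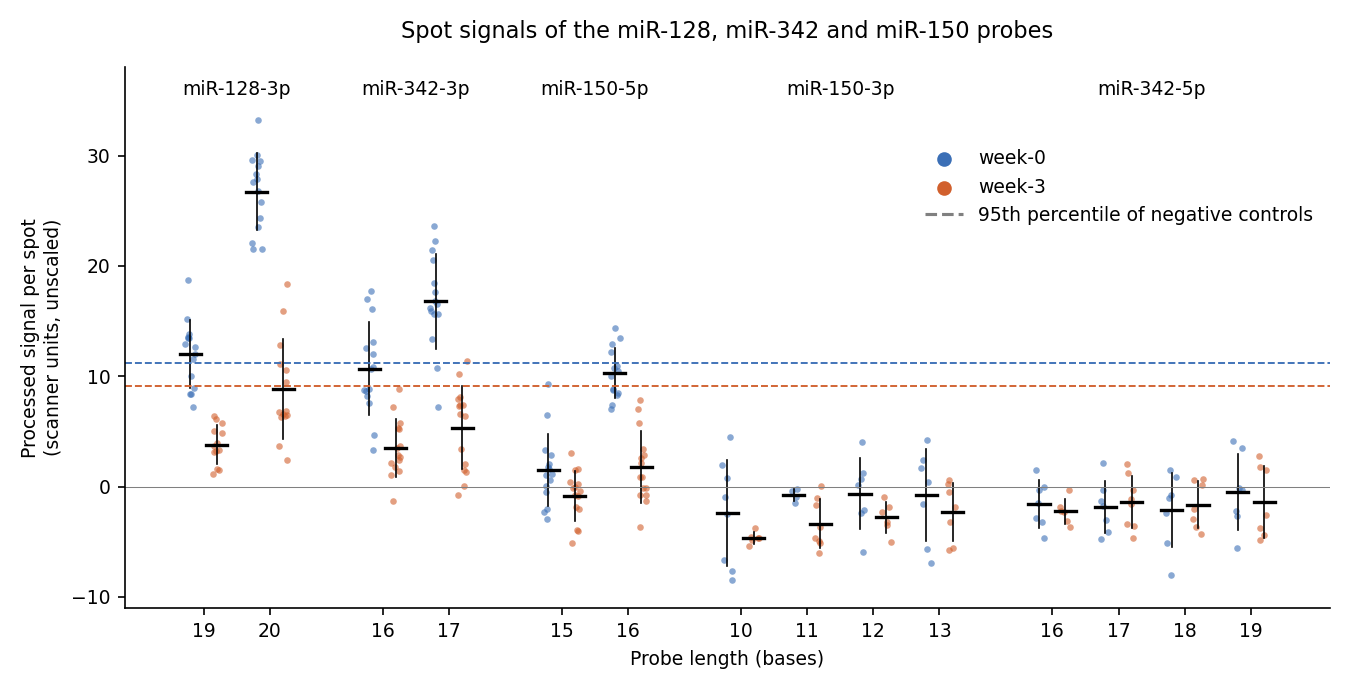
Processed signal (scanner units, unscaled, vertical axis) of every spot kept for the 14 probes, grouped by miRNA and probe length in bases (horizontal axis); thick bars are probe means, thin lines ± 1 SD over spots, and dashed lines the 95th percentile of the negative controls (11.2 at week-0, 9.10 at week-3). At week-0 the longer miR-128-3p probe lies wholly above its line (21.6 to 33.2) and most spots of the longer miR-342-3p probe do, whereas miR-150-3p and miR-342-5p scatter around or below 0 on both arrays.

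miR-150-5p was undetected on both arrays, yet its 16-base probe was not at the floor at week-0. Its spots there ran from 7.03 to 14.4 with a median of 10.3, all above the negative-control mean, and 4 of 14 lay above the 95th percentile. The mean was 10.3 ± 2.31 (SD, n = 14 spots) and the total 2.25 times its error. One further week-0 spot, marked as an outlier and left out, read 22.3. At week-3 the spots ran from -3.67 to 7.80 with a median of 0.908, and the mean was 1.77 ± 3.23 (SD, n = 15 spots), a difference of -2.73 from the negative controls.

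The difference of the miR-150-5p probe, week-3 minus week-0, was -8.52 units (SE over spots 1.04), and 1 of 15 week-3 spots reached the lowest week-0 spot. The 15-base probe did not stand out, with 1.49 ± 3.23 (n = 15) at week-0 and -0.826 ± 2.26 (n = 15) at week-3. Since neither array detected miR-150-5p, no fold is given. The data leave it below what the array can call, which does not show that it was absent.

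The remaining arms gave no signal. The 4 miR-150-3p probes, of 10 to 13 bases, had means from -2.38 to -0.637 at week-0 and from -4.66 to -2.29 at week-3, with 15 of 26 and 24 of 27 spots below 0. The 4 miR-342-5p probes, of 16 to 19 bases, had means from -2.15 to -0.477 and from -2.25 to -1.37, with 22 of 28 and 20 of 28 spots below 0. Across these 8 probes, 0 of 54 kept spots at week-0 and 0 of 55 at week-3 exceeded the mean of the negative controls. That mean lies not far under the 95th percentile of probes of undetected miRNAs, so the count says little alone. Among those probes the 8 lay at percentiles 35.9 to 59.0 at week-0 and 6.40 to 48.1 at week-3. Of the Mir342 hairpin, then, only the 3p arm was detected, and only at week-0.

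For the week-3 to week-0 comparison the probe means of a miRNA were summed, quantile normalization was run over all 1881 sums, and log2 was taken above a floor of 0.5. The miR-128-3p sum went from 38.8 (SE over spots 1.20) to 12.6 (SE 1.30), and its normalized log2 signal from 5.28 to 3.76. The log2 difference was -1.53 (SE over spots 0.16), a ratio of 0.347. The miR-342-3p sum went from 27.5 (SE 1.56) to 8.85 (SE 1.18), and its normalized log2 signal from 4.72 to 3.24. The log2 difference was -1.48 (SE 0.21), a ratio of 0.360. Both differences are computed from week-3 signals that were not detected, so they describe the processed values and do not measure a fold. Their errors describe spots within an array and say nothing of the spread between mice.

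Both ratios passed the study's threshold of 0.67 for a lower miRNA, so 2 of the 5 arms were lower and 0 higher. The 3 arms undetected on both arrays were given no ratio. Of the 213 miRNAs detected on at least 1 array, which leave those 3 out, 28.6% were lower. Of the 20 miRNAs detected at week-0 only, 95% (19 of 20) were lower by their processed values. A miRNA that drops out of detection is nearly bound to be lower, so that miR-128-3p and miR-342-3p were lower adds little to their loss of detection. Over the 158 miRNAs detected on both arrays the median log2 difference was -0.04. Before scaling that median was -0.18, and the ratios were 0.326 for miR-128-3p and 0.322 for miR-342-3p.

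Since neither arm was detected at week-3, no fold was measured, and the week-0 signal was set against a detection limit instead. Undetected did not mean dimmer than every detected miRNA, as the lowest unscaled week-3 sum of a detected miRNA was 6.22. The miR-128-3p sum of 12.6 was 2.03 times that value, and the miR-342-3p sum of 8.85 was 1.42 times. A bound first planned from the dimmest detected miRNA therefore gave back the plain log2 differences of -1.53 and -1.48. The limit used was the signal at which the probe's total at week-3 would have reached 3 times its error, a limit chosen after the values were seen. It was 10.2 units for the longer miR-128-3p probe and 9.96 for the longer miR-342-3p probe, against week-0 means of 26.7 and 16.8. The week-0 means were thus 2.62 and 1.69 times the limit in unscaled processed signal. The limit marks where detection would start and is not an upper bound on the week-3 signal, so these values give no minimum decrease. For miR-128-3p the week-3 mean of 8.84, at 2.60 times the error, lay close under it. Neither value carries over to other summaries of the spots. Where local background was subtracted from the mean spot signal, the log2 differences were -0.42 and -0.34. Under an RMA-like summary (normexp background correction with an offset of 50, then quantile scaling) they were -0.23 and -0.16. None of these passed the threshold. Both settings leave a level under the spots that shrinks the differences of dim miRNAs. They called 10.8% and 4.69% of the 213 miRNAs lower, against 28.6%. Falling short of the threshold there does not show that an arm kept its level. In the authors' normalized table the log2 differences were -1.06 for miR-128-3p (3.94 to 2.88) and -0.65 for miR-342-3p (3.47 to 2.82), both past the threshold.

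**Figure D2:**
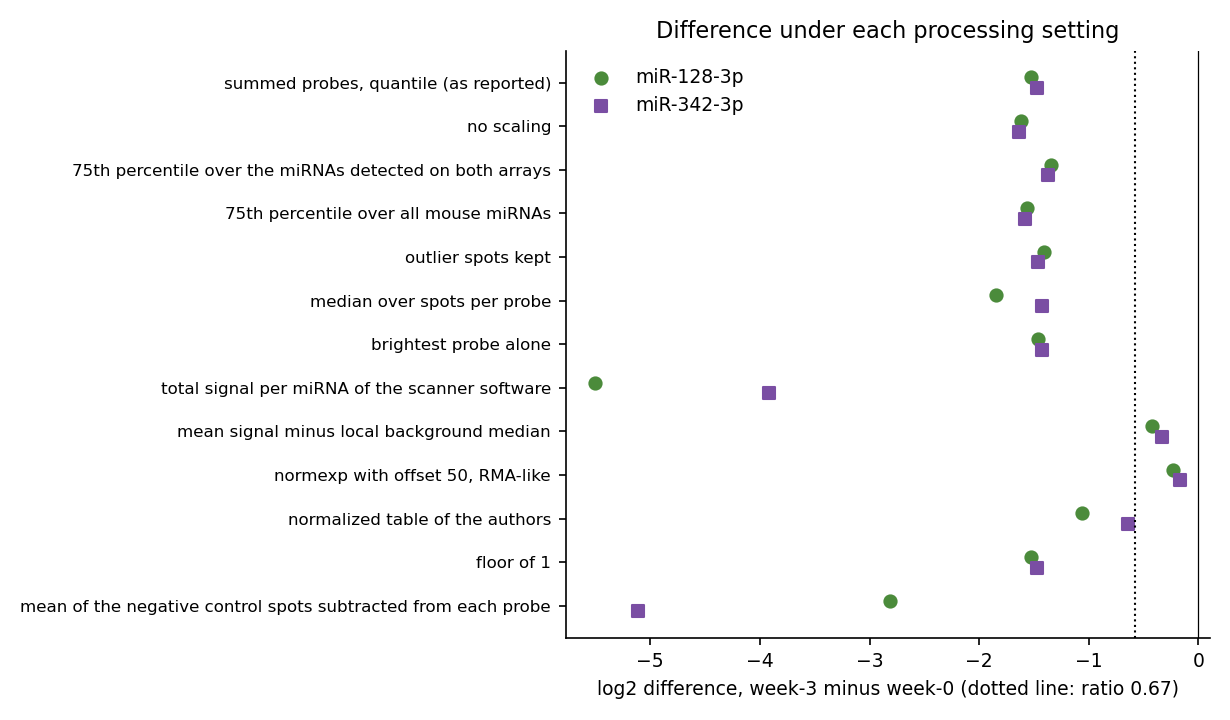
Log2 difference, week-3 minus week-0 (horizontal axis), of miR-128-3p (circles) and miR-342-3p (squares) under each way of summarizing and scaling the spots (vertical axis); the dotted line is a ratio of 0.67 and no error is drawn. All points lie below 0, from -5.50 to -0.16, and those of the local-background and RMA-like settings lie between the dotted line and 0.

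**Figure D3:**
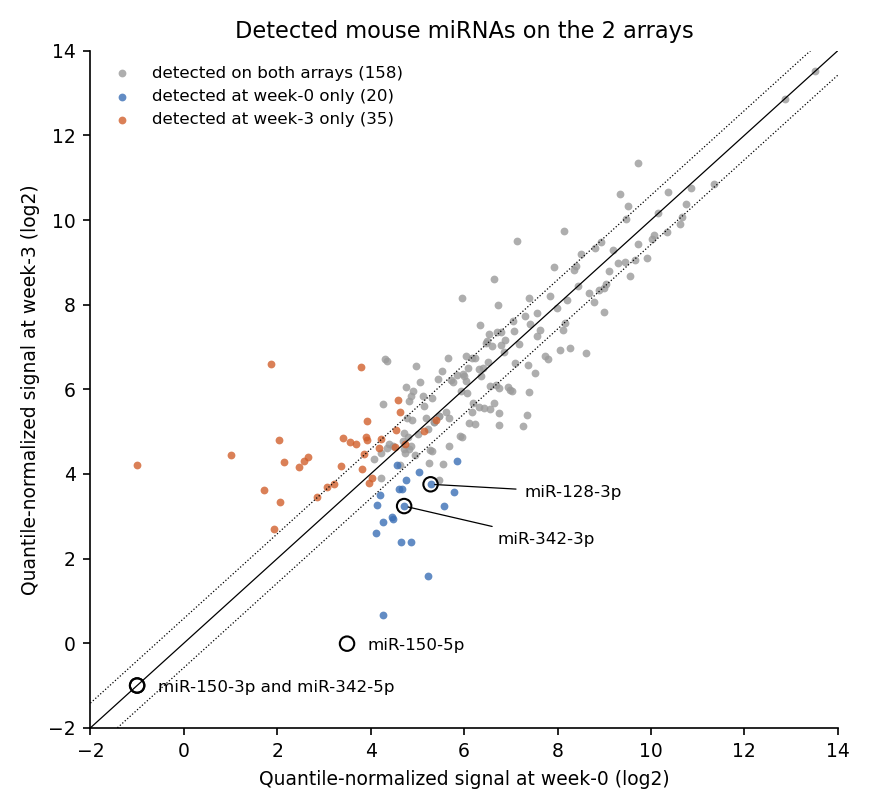
Quantile-normalized log2 signal at week-0 (horizontal axis) and week-3 (vertical axis) of the 213 detected miRNAs (points) and the 5 arms (rings), 1 array per axis; the solid line is equality and the dotted lines are ratios of 1.5 and 0.67. miR-128-3p and miR-342-3p lie under the lower dotted line among the miRNAs detected at week-0 only, and the rings at the floor of -1 are miR-150-3p and miR-342-5p.

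The miRNAs nearest to miR-128-3p in log2 unscaled signal over both arrays were miR-30a-5p (distance 0.25), miR-135a-1-3p (0.41) and miR-361-5p (0.45). Of these, miR-30a-5p was detected on both arrays, with a log2 difference of -1.62 (SE over spots 0.21). The nearest to miR-342-3p were miR-203-3p (0.35), miR-320-3p (0.37) and miR-362-3p (0.41), all detected at week-0 only. These distances compare 1 pair of signals from unlike probes, and the week-3 signal of both arms was undetected, so they describe likeness of array signal only.

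No lymphocyte sample is among the arrays, so the lymphoid link of these arms could be set only against other miRNAs known from lymphoid cells. A list of 12 such miRNAs held the 4 arms of miR-150 and miR-342. The week-0 array detected 8 of the 12 and the week-3 array 6. By processed values 7 of the 8 were lower and 0 higher, against 28.6% lower of all 213, but miR-342-3p and miR-146a-5p are among the 7 and entered through week-0 alone. Of the 6 detected on both arrays, which hold none of the miR-150 or miR-342 arms, 5 were lower and 0 higher, with a median log2 difference of -0.92. Over the 158 detected on both, 26.6% were lower and the median was -0.04. The list was chosen with earlier results of these data known, so the contrast describes the listed miRNAs and tests nothing. The miR-181 family, known for its role in early B and T cell development, was lower in each of its 4 5p arms: miR-181a-5p by a log2 difference of -1.30, miR-181b-5p -0.75, miR-181c-5p -1.61 and miR-181d-5p -1.06. The mature miR-181 sequences are closely alike, so their probes may share signal. miR-146a-5p, which restrains NF-kB signaling, was detected at week-0 only (sum 36.8 to 2.99), and miR-155-5p, induced in activated lymphocytes, lay just outside the threshold at a ratio of 0.673 (0.629, past it, before scaling).

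Other cell-type lists, also chosen with earlier results known, were read in the same way. Of 11 miRNAs typical of stem cells and progenitors of blood, the week-0 array detected 9 and the week-3 array 6. By processed values 9 were lower and 0 higher, against 28.6% lower of all 213. Of these, miR-125a-5p, miR-100-5p and let-7e-5p entered through week-0 alone. All 6 detected on both arrays were lower (median -1.61), against 26.6% lower of the 158. The list's summed unscaled signal went from 1587 to 438. The lymphoid list went from 630 to 267. In such list sums negative values count as 0 and the brightest miRNAs weigh most. At week-0 miR-130a-3p alone held 448 of the 1587, so the sums of different lists cannot be compared. Of 4 myeloid and pan-blood miRNAs, 3 were detected on both arrays, 1 lower and 1 higher (median -0.42), and the list's sum went from 2236 to 1926. miR-223-3p, a myeloid miRNA, was higher by 0.84 on the log2 scale (a ratio of 1.79, and 1.37 before scaling, short of 1.5). The pan-blood miR-142a-5p differed by -0.80 on that scale and miR-142a-3p by -0.42 (ratio 0.746, and 0.582, past the threshold, before scaling). The erythroid miR-451a was detected at week-0 only (sum 48.9 to 8.95) and was the 1 erythroid miRNA of 4 on the array that was detected. All 5 miRNAs known from neurons, miR-124-3p among them, were undetected on both arrays, so miR-128-3p was measured where those brain miRNAs were not. The part of a changed cell makeup in the values of miR-128-3p and miR-342-3p was not tested.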

How the data were processed

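Total RNA of the 2 LSK pools was hybridised to Agilent mouse miRNA arrays, and spot values were read from the scans with Feature Extraction 10.7.1.1, per the file headers, which name mm9. The deposited scanner files hold linear intensity per spot (58594 per array), the processed signal being background-subtracted with no scaling between arrays. The authors also deposited a table of log2 values, quantile normalized with AgiMicroRna per the study's methods. Its scale was found by setting it against the brightest probe of each detected miRNA (slopes 1.05 and 1.03, column medians 2.48 and 2.48), and its background step is not given in the sources used here.

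Control spots and outlier spots (1941 and 1600) were left out. Processed signals were averaged per probe, summed per miRNA, quantile normalized, floored at 0.5 and log2 transformed. Standard errors were taken over spots. Sequences, with positions, came from RefSeq tables of GRCm38.p6 and were matched by name. The miRNAs named are the 5 arms, their partner arms, the listed cell-type miRNAs and the 3 nearest neighbours of each detected arm. These members and lists were chosen with earlier results of these data known. Scripts ran on Python 3.11.15 (numpy 2.4.6, pandas 2.3.3) and R 4.3.3 (limma 3.58.1) and were tested on simulated data. That test checked only the brighter simulated miRNAs, above the signal of miR-342-3p, and simulated no detection call. Only 2 arrays and the spots of each probe limit the precision.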

Additional observations from a re-analysis of the deposited data

How the results depend on the processing

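With 1 array per group, replicates could not be left out. No paired analysis was possible because each group was 1 pool on 1 array. The log2 differences of miR-128-3p and miR-342-3p stayed below 0 in 12 of 12 alternatives each and past the 0.67 threshold in 10 of 12. This tally counts a floor of 1, which left both values unchanged. It also counts the scanner's total signal and the negative-control subtraction, which size no fold. All alternatives reuse the same 2 arrays. The 20 miRNAs detected at week-0 only all had differences below 0 (highest -0.35), so the shared sign adds no support. The settings short of the threshold were the local-background and RMA-like ones. For miR-128-3p the value was -1.35 when scaled to the 75th percentile of the miRNAs detected on both arrays, -1.85 from spot medians, -5.50 from the scanner's total signal, -0.42 from the mean signal minus local background, -0.23 under normexp with an offset of 50 and an RMA-like summary, and -1.06 in the authors' table. For miR-342-3p it was -3.92 from the total signal, -0.34 minus local background, -0.16 RMA-like and -0.65 in the authors' table. An alternative chosen after seeing the data, subtracting the mean negative control from each probe, gave -2.82 and -5.11. The last of these rests on the floor, and the total signal holds an error estimate where a miRNA is undetected, so neither sizes a fold.

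Detection of the 5 arms stayed at 0 at week-3 under every rule tried, but at week-0 it was 1 (miR-128-3p) when 50% of a probe's spots had to be well above background. The count of miRNAs past 1.5-fold was 116 (55 higher and 61 lower), 41 minus local background, 20 RMA-like, 72 among miRNAs detected on both arrays, 433 with no filter on detection and 65 at 2-fold. Without scaling 43 were higher and 76 lower (36.1% higher, against 47.4%), and scaled to the 75th percentile of all miRNAs 45 and 74 (37.8%). At these signals, close to the negative controls, spot noise and the background step limit both arms.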
